A study of Tachysurus vachellii with 6 samples.

Results

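Facilitated glucose transporters of the SLC2 (GLUT) family were examined in gill messenger RNA of hybrid yellow catfish, the cross of a Tachysurus fulvidraco female with a Pseudobagrus vachellii male. Rows of the deposited gene table were taken as family members when the gene symbol began with slc2a or the description named a facilitated glucose transporter. Of 28288 genes in the table, 22 met that rule, and 7 of them had at least 1 FPKM (a level scaled for transcript length and library size) in 3 or more of the 6 libraries. These 7 were LOC113643039, LOC113642854, slc2a4, slc2a6, slc2a8, slc2a10 and slc2a12. Fish of the hypoxia group lived for 96 h in water with 1.5 mg/L of dissolved oxygen, and those of the normoxia group in water with 6.5 mg/L. Fish of both groups were of the same hybrid cross and were fasted before the exposure; the labels give no age. RNA of 9 fish per group was pooled by 3 fish, which gave 3 libraries per group. The errors below therefore describe the spread between pools, not between single fish. In a bulk sample, fewer cells of a type and less RNA per cell cannot be told apart.

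GLUT proteins carry hexoses across membranes down their concentration gradient, without coupling to sodium. Class I (GLUT1 to GLUT4 in mammals) holds the main glucose carriers of the cell surface, class II holds carriers that prefer fructose or urate, and class III holds mostly intracellular or less common carriers. In mammals, GLUT1 supplies many tissues at a steady rate and its gene is a target of hypoxia-inducible factor. GLUT4 is stored in vesicles of muscle and fat and moves to the surface under insulin. Glucose that enters is trapped by hexokinase as glucose 6-phosphate, which then goes to glycolysis or glycogen. The question of the design, applied to this family, was whether the transcripts for glucose entry differed between gills at low and at ordinary oxygen.

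Total counts ran from 44762764 to 54578326 in the hypoxia libraries and from 46885400 to 55016223 in the normoxia libraries. The oxygen-sensing hydroxylase gene egln3 separated the labelled groups, at 65.8 to 78.6 FPKM in hypoxia and 4.57 to 11.8 FPKM in normoxia. Markers of gill cells were present: ionocyte markers summed to 991 to 1709.9 FPKM in hypoxia and 922 to 1582 FPKM in normoxia, with foxi3 at 0 in every library, 0 of 7 tested called and 5 of 7 above 0 by point estimate. Epithelial markers summed to 2233 to 3261 FPKM in hypoxia and 2377 to 4089 FPKM in normoxia. Of 5 tested, 0 were called, with 2 above and 3 below 0 by point estimate. Of these, tp63 stood at 22.6 to 44.6 FPKM in hypoxia and 69.0 to 91.1 FPKM in normoxia (edgeR adjusted p = 0.0503). The cadherin-1-like gene LOC113634238 stood at 3.25 to 4.28 FPKM in hypoxia and 5.46 to 9.69 FPKM in normoxia (edgeR adjusted p = 0.0564). The claudin gene cldn7 went the other way, at 190 to 255 FPKM in hypoxia and 157 to 206 FPKM in normoxia (edgeR adjusted p = 0.100). Fast skeletal muscle markers varied from library to library, with a summed level of 7.15 to 274 FPKM in hypoxia and 3.42 to 311 FPKM in normoxia. The summed level of 9 leukocyte markers was 427 to 465 FPKM in hypoxia and 593 to 674 FPKM in normoxia. Of single genes tested, 25.9% had FPKM below normoxia in every hypoxia library. Of 8 leukocyte markers tested 3 were called lower, against 4.15% of all genes tested. Much of the sum was lcp1, at 267 to 316 FPKM in hypoxia and 319.6 to 392 FPKM in normoxia. Its log2 change was -0.08 ± 0.19 (edgeR adjusted p = 0.804), and that of csf1r was -0.09 ± 0.14 (edgeR adjusted p = 0.699).

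No member of the family passed the test in either direction. The test was edgeR's quasi-likelihood test on counts with TMM scaling, with Benjamini-Hochberg adjustment over all 15312 genes that passed the same FPKM filter, and a gene was called at an adjusted p under 0.05. Of all genes tested, 5.39% were called higher in hypoxia, 4.15% lower, and 9.54% in either direction, so 0 of 7 is near that background for a group of this size. In numbers of genes that was 825 higher and 636 lower, but 366 higher and 798 lower with scaling by library totals alone. It was 479 higher and 887 lower with limma on log2(FPKM + 1), 436 higher and 748 lower with limma on log2(FPKM + 0.1), and 740 higher and 350 lower with a correction for transcript length. By point estimate 3 members were higher and 4 lower, with a median log2 change of -0.04 for the members and -0.04 for all genes tested. At an unadjusted p under 0.05 there were 2 members, LOC113643039 above and slc2a10 below normoxia, against 30.3% of all genes tested. DESeq2's Wald test, used as another tool, called 1 of the 7, LOC113643039, as higher (adjusted p = 0.0493), where it called 11.7% of all genes higher and 10.1% lower. Limma on log2(FPKM + 1) and on log2(FPKM + 0.1) called 0 of the 7.

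**Figure D1:**
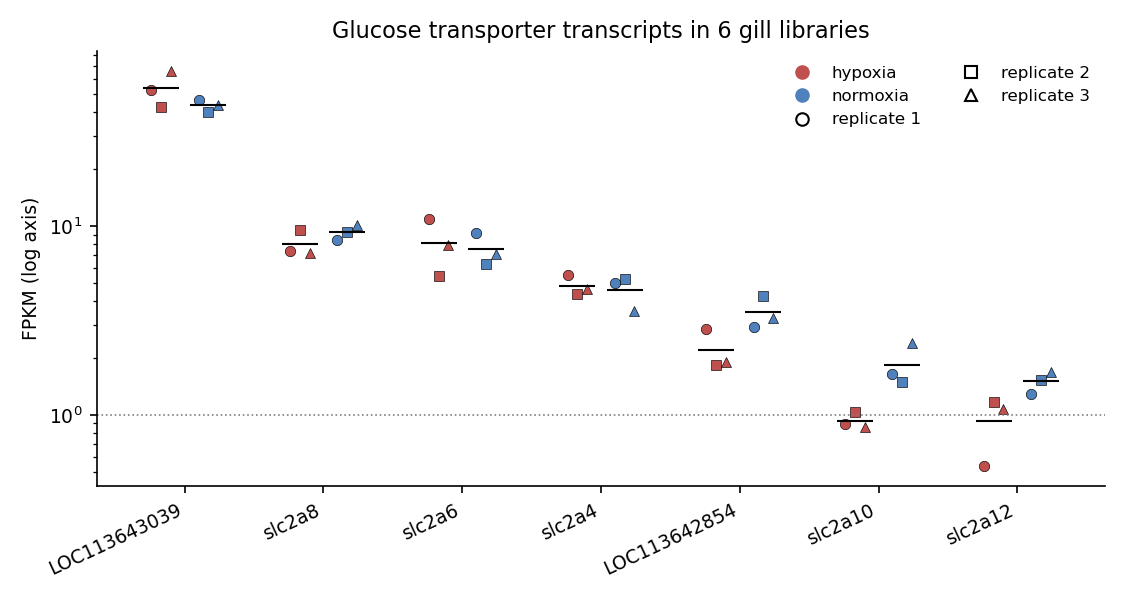
FPKM (log axis) of the 7 transporter genes in each library, hypoxia in red on the left and normoxia in blue on the right of each pair, with a bar at the mean of 3 libraries and a symbol for each replicate number. The dotted line marks the filter of 1 FPKM. LOC113643039 stands at 42.6 to 66.6 FPKM in hypoxia and 40.4 to 46.4 FPKM in normoxia, far above the other 6, and slc2a10 and slc2a12 lie near the filter.

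LOC113643039, a class I carrier gene, had the highest level of the 22 family rows. It is described as a facilitated glucose transporter member 1-like gene and lies on scaffold NW_020848416.1 from 8017969 to 8031614 on the minus strand. It was the only one of the 22 family rows that the deposited annotation places in the HIF-1 signaling pathway. Its level was 52.5, 42.6 and 66.6 FPKM in hypoxia replicates 1, 2 and 3, against 46.4, 40.4 and 44.0 FPKM in normoxia replicates 1, 2 and 3. Hypoxia replicates 1 and 3 lay above every normoxia library, and hypoxia replicate 2 lay inside the normoxia range. After TMM scaling the groups no longer overlapped, at 145 to 204 CPM (counts scaled to library size) in hypoxia and 119.7 to 143 CPM in normoxia, as in 18.7% of all genes tested. The log2 change was 0.46 ± 0.17 (SE, n = 3 libraries per group), or 1.37-fold, with an edgeR adjusted p of 0.118. The 95% interval of the fold change, not adjusted for the number of genes, ran from 1.05 to 1.80, so a doubling lay outside it. In humans GLUT1 is abundant in red cells and in endothelium of some tissues. The summed red cell markers were 3885, 4336 and 4689 FPKM in hypoxia replicates 1, 2 and 3, against 3329, 5559 and 7268 FPKM in normoxia replicates 1, 2 and 3. Of 6 red cell markers tested, 0 were called, with 1 above and 5 below 0 by point estimate and a median log2 change of -0.37. The summed endothelial markers were 71.6, 115 and 122 FPKM in hypoxia replicates 1, 2 and 3, against 122, 104 and 76.1 FPKM in normoxia replicates 1, 2 and 3. Of 6 endothelial markers 1, esam, was called higher, and by point estimate 3 lay above and 3 below 0. The marker tie1 went the other way, at 0.701 to 2.55 FPKM in hypoxia and 3.29 to 3.66 FPKM in normoxia (edgeR adjusted p = 0.217). Both sums overlapped between the groups, and their part in the level of LOC113643039 was not tested.

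The other gene described as member 1-like, LOC113642854, was far less abundant and lay on the other side of zero. It lies on scaffold NW_020847785.1 from 1557692 to 1570358 on the minus strand. Its level was 2.85, 1.84 and 1.91 FPKM in hypoxia replicates 1, 2 and 3, against 2.93, 4.27 and 3.27 FPKM in normoxia replicates 1, 2 and 3. All 3 hypoxia libraries lay below all 3 normoxia libraries on FPKM, as in 25.9% of all genes tested, but the closest pair was 2.85 and 2.93 FPKM. After TMM scaling hypoxia replicate 1 lay inside the normoxia range and the groups overlapped. The log2 change was -0.48 ± 0.28 with an edgeR adjusted p of 0.283 and a 95% interval from -1.14 to 0.17.

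Since both genes were read from the same libraries, the ratio of one to the other does not depend on library scaling. LOC113643039 stood at 18.4, 23.2 and 34.8 times the FPKM of LOC113642854 in hypoxia replicates 1, 2 and 3, and at 15.8, 9.47 and 13.5 times in normoxia replicates 1, 2 and 3. Every hypoxia library had a larger ratio than every normoxia library. The mean log2 ratio was 4.62 ± 0.466 in hypoxia and 3.66 ± 0.379 in normoxia (SD, n = 3 each), a difference of 0.96. This pair was picked with the opposite signs of the 2 genes already known, so the ratio is a description and has no test. The table describes 6 rows as member 1-like in all, and reads of close copies could be split between rows in a way the sources used here do not state.

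The insulin-regulated carrier gene of class I, slc2a4, was expressed at a low level in both groups. Its level was 5.50, 4.37 and 4.64 FPKM in hypoxia replicates 1, 2 and 3, against 5.00, 5.27 and 3.54 FPKM in normoxia replicates 1, 2 and 3. The groups overlapped, and the log2 difference of 0.24 ± 0.23 had an edgeR adjusted p of 0.532 and a 95% interval from -0.31 to 0.79. In mammals this gene marks muscle and fat, and muscle markers differed widely between these libraries. One creatine kinase M-type gene, LOC113642748, stood at 92.4, 16.9 and 1.30 FPKM in hypoxia replicates 1, 2 and 3, against 0.0838, 36.8 and 84.9 FPKM in normoxia replicates 1, 2 and 3. Hypoxia replicate 1 held the highest level of both genes, at 92.4 FPKM of LOC113642748 and 5.50 FPKM of slc2a4. Normoxia replicate 1, with the least LOC113642748, had 5.00 FPKM of slc2a4. Normoxia replicate 3 had 84.9 FPKM of LOC113642748 and the lowest slc2a4, at 3.54 FPKM. The part of muscle in the level of slc2a4 was not tested. Of the 2 adipocyte marker genes in the table, 1 had no count in any library and the other, cidec, reached at most 0.181 FPKM. The gene slc2a4 lies on scaffold NW_020848008.1 from 1751172 to 1765319. Its span is 112 bases from that of a Y-box-binding protein 2-A-like gene on the other strand, and whether strand was used in counting is not stated, so reads of the closest ends may not be told apart.

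The class III carriers slc2a6 and slc2a8, which in mammals sit mainly on internal membranes, were the second most abundant pair. For slc2a8 the level was 7.36, 9.55 and 7.17 FPKM in hypoxia replicates 1, 2 and 3, against 8.39, 9.28 and 10.1 FPKM in normoxia replicates 1, 2 and 3. Hypoxia replicate 2 lay inside the normoxia range. Its log2 difference of -0.04 ± 0.18 (edgeR adjusted p = 0.914) changed sign under 4 of 16 alternatives, and its 95% interval ran from -0.46 to 0.39. For slc2a6, described as member 6-like, the level was 10.9, 5.45 and 7.93 FPKM in hypoxia replicates 1, 2 and 3, against 9.18, 6.29 and 7.12 FPKM in normoxia replicates 1, 2 and 3. The hypoxia libraries of slc2a6 held both its highest and its lowest value. Its log2 difference was 0.27 ± 0.31 (edgeR adjusted p = 0.587), and the value was -0.08 without hypoxia replicate 1.

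The 2 remaining class III carriers, slc2a10 and slc2a12, had the lowest levels of the 7 and lower values in hypoxia on FPKM. In humans, loss of the slc2a10 product causes a connective tissue disorder of the arteries. The level of slc2a10 was 0.899, 1.03 and 0.863 FPKM in hypoxia replicates 1, 2 and 3, against 1.65, 1.49 and 2.39 FPKM in normoxia replicates 1, 2 and 3. Every hypoxia library lay below every normoxia library, also after TMM scaling, at 2.11 to 2.76 CPM in hypoxia and 3.48 to 5.56 CPM in normoxia, as in 18.5% of all genes tested. The log2 change was -0.82 ± 0.32, the largest in size of the 7, with an edgeR adjusted p of 0.141 and a 95% interval from -1.57 to -0.06. It rests on 99 to 135 counts in the hypoxia libraries and 174 to 293 counts in the normoxia libraries. The gene passed the FPKM filter with 4 libraries, 3 of them normoxia, so it passed mainly through the group in which it was higher.

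For slc2a12 the level was 0.535, 1.17 and 1.07 FPKM in hypoxia replicates 1, 2 and 3, against 1.29, 1.53 and 1.69 FPKM in normoxia replicates 1, 2 and 3. The hypoxia libraries lay below the normoxia libraries on FPKM, and hypoxia replicate 1 was the lowest by a wide margin. The gene passed the FPKM filter with 5 libraries, 3 of them normoxia, and hypoxia replicate 1 was under the filter. With TMM scaling the groups overlapped, at 2.89 to 5.83 CPM in hypoxia and 5.82 to 7.33 CPM in normoxia. The log2 change was -0.55 ± 0.31 (edgeR adjusted p = 0.276), and it was -0.32 without hypoxia replicate 1. In all, 3 of 7 members had FPKM below normoxia in every hypoxia library, against 25.9% of all genes tested, and 0 of 7 lay above, against 11.4%. Of the 3, slc2a10 and slc2a12 reached 1 FPKM in every normoxia library but not in every hypoxia library. The filter thus took them in through the group where they were higher, so the count of 3 is no result about the family. FPKM carry no TMM scaling, and after it the counts were 1 below and 1 above. The leukocyte marker sum given above, and the epithelial genes tp63 and LOC113634238, also had lower FPKM in hypoxia. The leukocyte markers lcp1 and csf1r were not called. Of 5 epithelial markers tested, 2 lay above 0, cldn7 among them. The part of any of these cells in the values of LOC113642854, slc2a10 and slc2a12 was not tested.

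**Figure D2:**
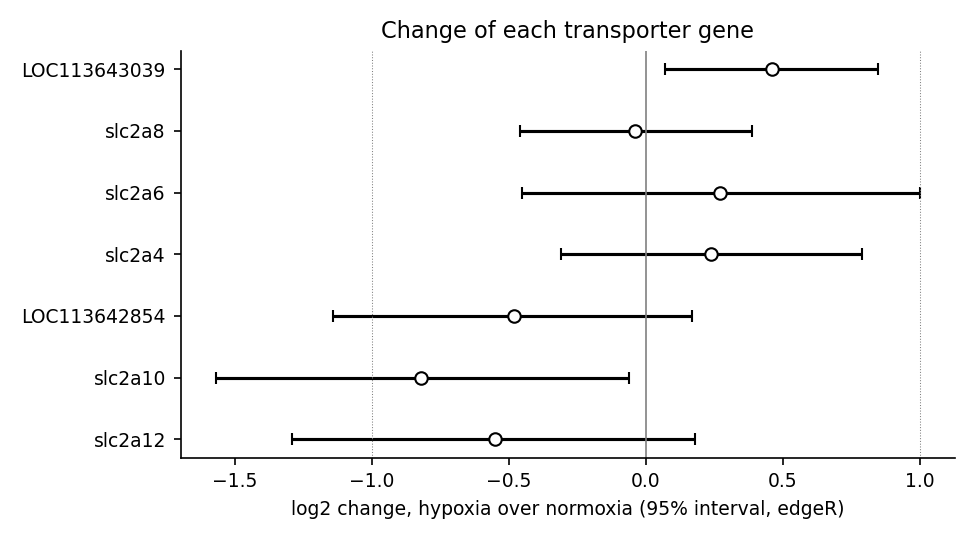
Log2 change of each transporter gene, hypoxia over normoxia, from edgeR with TMM scaling (open circles) with its 95% interval (bars), not adjusted for the number of genes. Dotted lines mark a doubling and a halving. The intervals of LOC113643039 (0.07 to 0.85) and slc2a10 (-1.57 to -0.06) do not reach 0, and no gene had an adjusted p under 0.05.

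The order of the levels, per transcript length and over all 6 libraries, began with LOC113643039 at a mean of 48.7 FPKM. It was followed by slc2a8 at 8.63, slc2a6 at 7.81, slc2a4 at 4.72, LOC113642854 at 2.84, slc2a10 at 1.39 and slc2a12 at 1.22 FPKM. Only the step from LOC113643039 to slc2a8 separated ranges that did not overlap. The order of slc2a8 and slc2a6 held in 3 of 6 libraries, as did that of slc2a10 and slc2a12, so neither pair can be ranked. The other 3 steps held within each of the 6 libraries. LOC113643039 ranked 1358 by mean FPKM among the 15312 genes tested, while slc2a12 ranked 14765.

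The summed level of the 7 genes was 80.5, 66.1 and 90.2 FPKM in hypoxia replicates 1, 2 and 3, against 74.8, 68.5 and 72.0 FPKM in normoxia replicates 1, 2 and 3. It averaged 78.9 ± 12.1 FPKM in hypoxia and 71.8 ± 3.16 FPKM in normoxia (SD, n = 3 each), and hypoxia replicate 2 was the lowest of all 6. The share held by LOC113643039 was 65.2%, 64.6% and 73.8% in hypoxia replicates 1, 2 and 3, against 62.0%, 58.9% and 61.0% in normoxia replicates 1, 2 and 3. Its share was thus larger in each hypoxia library than in any normoxia library, and a share within a library does not depend on scaling. The share also moves with the level of the other 6 genes. Like the ratio above, it was looked at with the values known, so it is a description and has no test. Without LOC113643039 the other 6 summed to 28.0, 23.4 and 23.6 FPKM in hypoxia replicates 1, 2 and 3, against 28.4, 28.1 and 28.1 FPKM in normoxia replicates 1, 2 and 3.

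**Figure D3:**
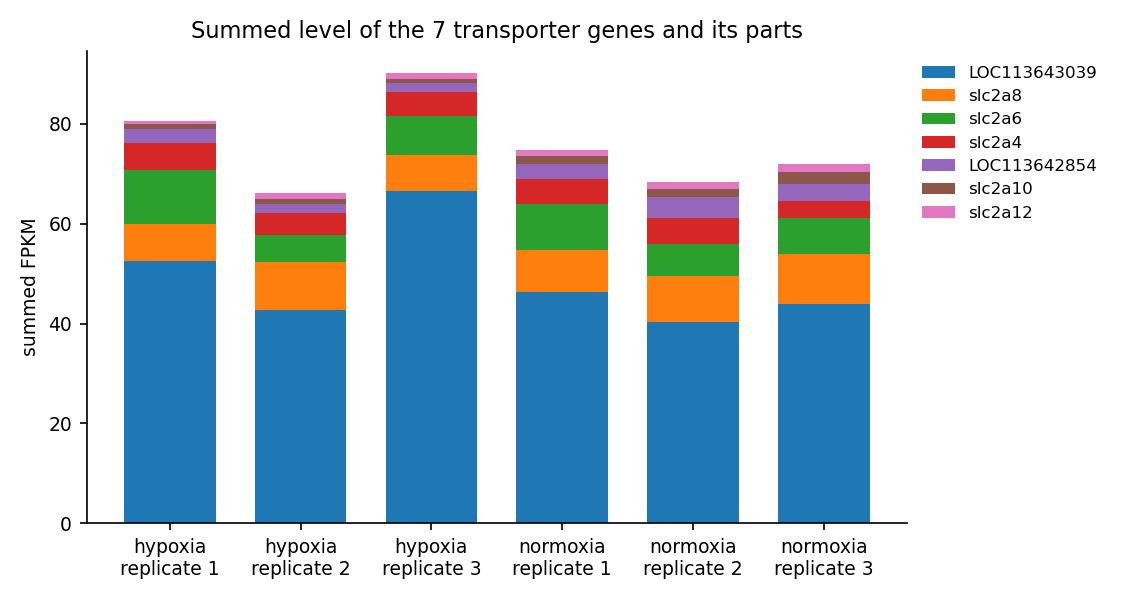
Summed FPKM of the 7 transporter genes in each library, stacked by gene, with hypoxia libraries on the left and normoxia libraries on the right. LOC113643039, at the base of each bar, holds 64.6% to 73.8% of the sum in hypoxia and 58.9% to 62.0% in normoxia.

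The other 15 family rows were under the FPKM filter. They summed to between 0.829 and 1.54 FPKM per library. The highest single value was 0.521 FPKM, in the member 11-like gene LOC113662678, while slc2a12, the member with the lowest mean, ran from 0.535 to 1.69 FPKM and slc2a10 from 0.863 to 2.39 FPKM. All 5 rows described as member 9, the urate carrier of mammals, and all 3 described as member 11 were among them, as were the fructose carrier gene slc2a5 and the proton myo-inositol cotransporter gene slc2a13. The liver and intestinal carrier gene slc2a2 had 0 counts in the 3 hypoxia libraries and in normoxia replicate 1, with 7 and 19 counts in normoxia replicates 2 and 3. Counts were 0 in every library for 4 rows, 2 of them described as member 1-like. No class II carrier therefore passed the filter, and the expressed family consisted of class I and class III genes.

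Beyond the name, the 7 genes shared little in the deposited annotation that sets them apart. They lie on 7 different scaffolds, and none of their spans overlaps another gene of the table. The annotation gives 6 of the 7 the same KEGG orthology entry, K07299, which it also gives to 5 of the 15 rows under the filter. It places all 7 in the insulin resistance pathway of KEGG. Transcript lengths estimated from counts and FPKM ran from 2292 bases for slc2a8 to 4621 bases for slc2a12.

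Genes whose pattern over the 6 libraries was most like that of a transporter were sought by Pearson's r of log2 CPM. For LOC113643039 they were the neutral amino acid transporter gene slc1a5 (r = 0.993), the MICOS complex subunit MIC27-like gene LOC113662872 (r = 0.993) and the AMSH-like protease gene stambpl1 (r = 0.992). The level of slc1a5 was 12.3, 8.72 and 16.8 FPKM in hypoxia replicates 1, 2 and 3, against 8.88, 6.58 and 7.14 FPKM in normoxia replicates 1, 2 and 3, and its log2 change of 0.89 ± 0.24 had an edgeR adjusted p of 0.0613. For LOC113642854 they were the midkine-B-like gene LOC113653943 (r = 0.994), hexosaminidase D, hexd (r = 0.994), and the transforming growth factor beta-1-like gene LOC113651967 (r = 0.993). Of 14270 genes compared, 268 had an r of at least 0.9 with LOC113643039 and 187 with LOC113642854, over 6 libraries that share the contrast and differ in depth.

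The genes that handle glucose before and after entry were set beside the transporters, using 6 lists with 55 tested genes in all. Of these, 6 were called higher and 2 lower in hypoxia, with a median log2 change of 0.07, against 5.39% and 4.15% of all genes tested and a median of -0.04. Of the 2 lower, gckr passed the FPKM filter mainly through normoxia, where it was higher. The difference between these lists and the transporters was not tested.

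In the list of glucose phosphorylation 1 of 5 tested genes was called higher and 1 lower. The hexokinase gene hk1, whose product traps glucose in the cell, rose to 43.3, 42.1 and 43.1 FPKM in hypoxia replicates 1, 2 and 3, against 18.8, 17.2 and 18.4 FPKM in normoxia replicates 1, 2 and 3. All hypoxia libraries lay above all normoxia libraries (log2 change 1.40 ± 0.13, edgeR adjusted p = 0.00509), and the call was kept in each of 6 fits with 1 library left out. The hexokinase-2-like gene LOC113657219 had 38.8, 21.6 and 41.7 FPKM in hypoxia, against 21.9, 16.9 and 18.8 FPKM in normoxia, so its groups overlapped on FPKM. After TMM scaling they did not, at 77.6 to 149.6 CPM in hypoxia and 53.1 to 71.9 CPM in normoxia, as in 18.7% of all genes tested. Its log2 change was 0.98 ± 0.26 (edgeR adjusted p = 0.0584). The gene gckr, the regulator that binds glucokinase in mammalian liver, had 0.660, 1.07 and 0.707 FPKM in hypoxia, against 3.56, 3.93 and 2.74 FPKM in normoxia (log2 change -1.90 ± 0.31, edgeR adjusted p = 0.0237). It reached 1 FPKM in every normoxia library but in hypoxia only in replicate 2. The filter thus took gckr in mainly through the group in which it was higher. The glucokinase gene gck itself had 0 counts in the 3 hypoxia libraries and in normoxia replicates 2 and 3, with 4 counts in normoxia replicate 1. The call of gckr was kept in 2 of 6 fits with 1 library left out.

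Of 11 tested genes of glycogen and glucose release, 3 were called higher and none lower, with a median log2 change of 0.14. The glycogen synthase gene gys1, which the table names by symbol but describes as a hypothetical protein, rose to 31.0, 32.4 and 33.6 FPKM in hypoxia, against 10.7, 8.37 and 13.8 FPKM in normoxia. That was a log2 change of 1.72 ± 0.19 (edgeR adjusted p = 0.00939), called in each of 6 fits with 1 library left out. The phosphoglucomutase gene pgm1, whose product interconverts glucose 6-phosphate and glucose 1-phosphate, rose by 1.05 ± 0.12 on the log2 scale (edgeR adjusted p = 0.0109) and was also called in each of those 6 fits. The gene ugp2, which makes the UDP-glucose used by glycogen synthase, rose by 1.15 ± 0.25 (edgeR adjusted p = 0.0391), a call kept in 1 of those 6 fits. The uncalled genes of that list with the smallest p encode enzymes of glycogen breakdown. The muscle-form-like glycogen phosphorylase gene LOC113663156 differed by 0.56 ± 0.17 on the log2 scale (edgeR adjusted p = 0.0856), the phosphorylase gene pygb by 0.29 ± 0.11 (edgeR adjusted p = 0.128) and the debranching enzyme gene agl by -0.30 ± 0.12 (edgeR adjusted p = 0.148). The branching enzyme gene gbe1 (0.14 ± 0.26, edgeR adjusted p = 0.760) and a second gene described like ugp2, LOC113663677 (0.14 ± 0.27, edgeR adjusted p = 0.762), which also belong to glycogen synthesis, did not pass.

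**Figure D4:**
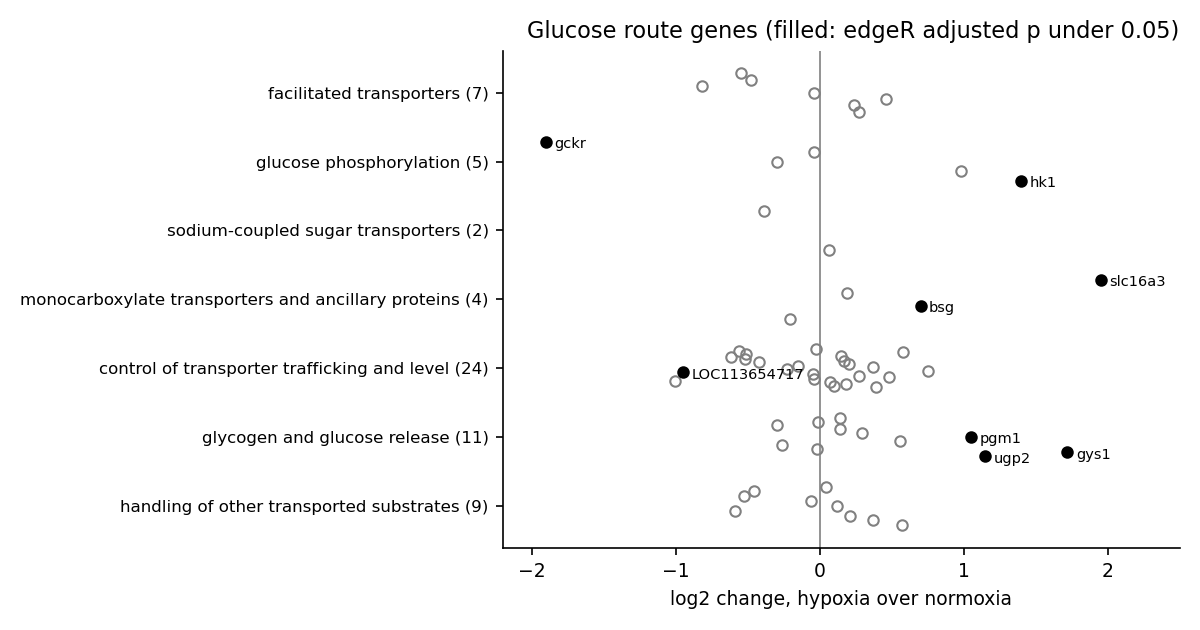
Log2 change, hypoxia over normoxia, of the 7 transporter genes (top) and of the tested genes of 6 other glucose lists, with the number of tested genes in brackets. Filled points had an edgeR adjusted p under 0.05 and are named, and points are spread vertically for legibility. The named genes are hk1, slc16a3, bsg, pgm1, ugp2 and gys1 to the right and gckr and LOC113654717 to the left, and no transporter is among them.

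Lactate leaves the cell through monocarboxylate transporters, some of which need the chaperone basigin to reach the surface. Of 4 tested genes of that list 2 were called higher and none lower. The gene slc16a3 rose to 12.2, 14.7 and 20.7 FPKM in hypoxia, against 5.77, 3.50 and 4.24 FPKM in normoxia (log2 change 1.95 ± 0.24, edgeR adjusted p = 0.0128). Its call was kept in 5 of 6 fits with 1 library left out, and without normoxia replicate 3 the adjusted p was 0.0510. The basigin gene bsg rose to 143, 155 and 199 FPKM in hypoxia, against 96.9, 118 and 127 FPKM in normoxia (log2 change 0.70 ± 0.15, edgeR adjusted p = 0.0383), but the call was kept in 0 of those 6 fits. Sodium-coupled sugar transporters, the other route of glucose entry, had low levels. The 7 rows summed to 3.88 to 4.83 FPKM in hypoxia and 5.03 to 6.21 FPKM in normoxia, and the highest of them in each library was a myo-inositol carrier gene, LOC113639831, at 2.31 to 3.12 FPKM in hypoxia and 2.70 to 2.87 FPKM in normoxia. The 2 tested, LOC113639831 and LOC113639832, are both described as myo-inositol carriers, and neither was called. No row described as a sodium/glucose cotransporter passed the FPKM filter, so none was tested.

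Of 24 tested genes for the trafficking and level of glucose transporters, 1 was called lower and none higher, with 12 above and 12 below 0 by point estimate and a median log2 change of 0.02. The gene called was LOC113654717, an insulin receptor substrate 2-B-like gene, at 1.64, 1.80 and 2.18 FPKM in hypoxia, against 3.44, 4.26 and 4.40 FPKM in normoxia (log2 change -0.95 ± 0.15, edgeR adjusted p = 0.0225). Its call was kept in 2 of 6 fits with 1 library left out. Genes of insulin signalling that did not pass lay on both sides of 0. Those largest in size lay below 0. They were irs2, at -1.01 ± 0.30 on the log2 scale (edgeR adjusted p = 0.0750), and the kinase gene akt1, at -0.62 ± 0.17 (edgeR adjusted p = 0.0648). Another insulin receptor substrate 2-B-like gene, LOC113647569, had -0.52 ± 0.24 (edgeR adjusted p = 0.190). The insulin receptor-like gene LOC113647079 had -0.23 ± 0.18 (edgeR adjusted p = 0.439), and irs1 had -0.05 ± 0.31 (edgeR adjusted p = 0.931). Above 0 were another gene described as insulin receptor substrate 2, LOC113648782, at 0.37 ± 0.16 (edgeR adjusted p = 0.163), and the insulin receptor substrate 1 gene LOC113654716, at 0.27 ± 0.31 (edgeR adjusted p = 0.595). So were the insulin receptor-like gene LOC113650213, at 0.15 ± 0.45 (edgeR adjusted p = 0.852), and the kinase gene akt2, at 0.07 ± 0.11 (edgeR adjusted p = 0.711). The gene aspscr1, whose product holds GLUT4 vesicles inside mammalian cells, had 0.48 ± 0.15 (edgeR adjusted p = 0.0851). Other trafficking genes that did not pass also lay on both sides of 0. Below 0 were tbc1d4, at -0.56 ± 0.22 (edgeR adjusted p = 0.134), and the sortilin-like gene LOC113655909, at -0.51 ± 0.18 (edgeR adjusted p = 0.106). The sorting nexin-27-like gene LOC113641293 had -0.42 ± 0.14 (edgeR adjusted p = 0.105). Above 0 was vps29, at 0.39 ± 0.15 (edgeR adjusted p = 0.132). One of 2 genes described as thioredoxin-interacting protein, which in mammals promotes the removal of GLUT1 from the surface, was very abundant. That gene, LOC113662807, was singled out after its values were seen. It stood at 1735, 1596 and 1167 FPKM in hypoxia replicates 1, 2 and 3, against 1278, 1135 and 995 FPKM in normoxia replicates 1, 2 and 3 (log2 difference 0.58 ± 0.25, edgeR adjusted p = 0.176). The other, LOC113644183, stood at 4.26, 7.70 and 8.30 FPKM in hypoxia, against 3.19, 4.22 and 5.91 FPKM in normoxia (log2 difference 0.75 ± 0.30, edgeR adjusted p = 0.142). Of 9 tested genes that handle fructose, polyols, myo-inositol and urate, none was called.

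The signs of the transporters' changes were compared over 16 alternatives. LOC113643039 and slc2a4 stayed above 0 and LOC113642854, slc2a10 and slc2a12 stayed below 0 in each of the 16, while slc2a8 and slc2a6 changed sign. The value of LOC113643039 ran from 0.28 with limma to 0.59 without hypoxia replicate 2. For slc2a10 it ran from -0.99 with library totals alone to -0.55 with limma on log2(FPKM + 1). The median log2 change of all genes, against which such values are read, was -0.04 with TMM, -0.20 with library totals alone and -0.17 with limma on log2(FPKM + 1).

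**Figure D5:**
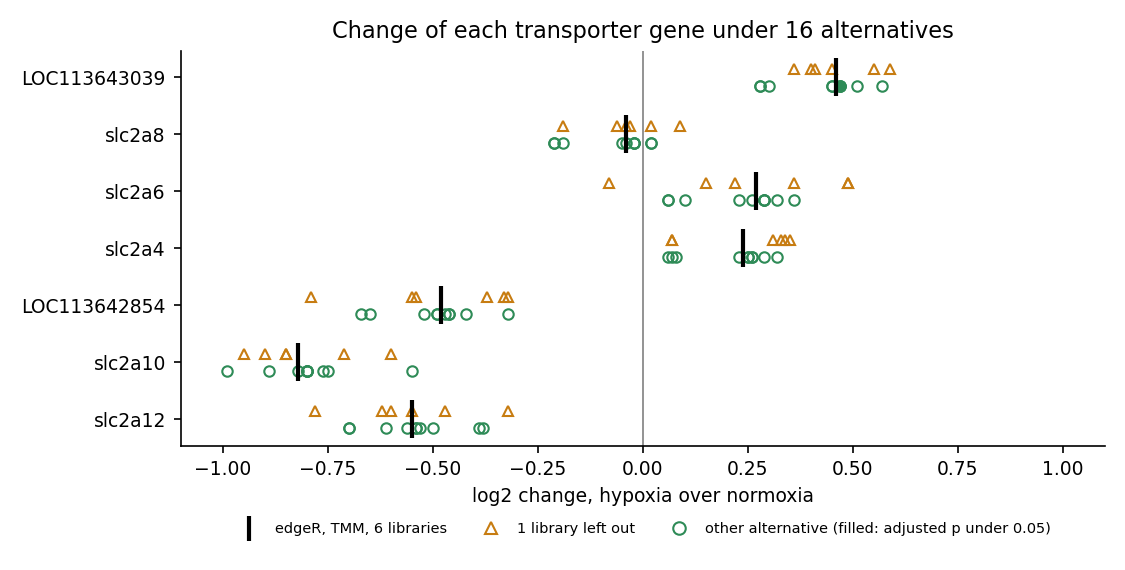
Log2 change of each transporter gene, hypoxia over normoxia, with edgeR and TMM on all 6 libraries (black bar), with 1 library left out (triangles) and under 10 other alternatives (circles, filled where the adjusted p was under 0.05). Only LOC113643039 has a filled point, from DESeq2 at 0.47, and slc2a8 and slc2a6 are the genes with points on both sides of 0.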

How the data were processed

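The members and gene lists were chosen with earlier results of these data known. Per the labels' protocols, gill RNA of 9 fish per group was pooled by 3, purified on oligo-dT beads and read as pairs. The submitters' processing notes name cutadapt 1.9 and HISAT. No source used here states the counter, FPKM program, strand setting, genome build or annotation; coordinates are those of the deposited table. The deposited table holds counts (whole numbers, not normalized) and FPKM, with a count of 0 listed as 0.0001 FPKM. Whether a count is a read or a pair is not stated. Each column name carries the code (STR or CON) and number of 1 sample title.

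The 15312 genes that reached 1 FPKM in 3 or more libraries were tested on the counts with edgeR 4.0.16 (glmQLFit, TMM, two-sided) in R 4.3.3, with Benjamini-Hochberg adjustment. Each SE is the log2 change divided by the square root of F. P-values set the difference between the groups against the spread between pools of fish. In edgeR that spread is moderated over the genes tested. Alternatives used limma 3.58.1, DESeq2 1.42.0, other scalings and filters, a loess offset on transcript length, a replicate block, and each library left out. The code was tested on simulated data. Named were all members, in each other list the genes called and up to 3 more of the smallest p, and the 3 genes most like LOC113643039 and LOC113642854. Added after their values were seen were LOC113662807, LOC113644183, LOC113648782, LOC113654716, akt2, LOC113647569, LOC113647079, irs1, LOC113650213, gbe1, LOC113663677, gck, LOC113642748 and cidec. So were tbc1d4, LOC113655909, LOC113641293, vps29, lcp1 and csf1r. Matches of 2 lists to monocarboxylate transporters beyond their set and to adiponectin receptors were dropped after the table was seen. Of the identifiers, 0 matched a RefSeq gene table of another assembly, so it was not used here.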

Additional observations from a re-analysis of the deposited data

How the results depend on the processing

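With 3 pools per group, SEs of the members' log2 changes ran from 0.17 to 0.32, against a median of 0.21 for all genes tested. The part of this spread in the lack of calls was not tested. The number of members called was 0 higher and 0 lower in edgeR with TMM and in 15 of 16 alternatives, and with 1 library left out it was 0 in each direction. DESeq2's Wald test called 1 higher, LOC113643039, at 0.47 on the log2 scale (adjusted p = 0.0493, against 0.0830 to 0.312 in the other 15). The sign of slc2a8 turned to 0.02 without an FPKM filter and with the length correction, and ran from -0.19 to 0.09 with 1 library left out. That of slc2a6 ran from -0.08 to 0.49 with 1 library left out. The cause was not tested. The difference in log2 ratio between LOC113643039 and LOC113642854 ran from 0.71 to 1.17 with 1 library left out. Also at 0.5 FPKM in 3 libraries, and at 1 FPKM in any library, 7 rows passed.

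Over all genes, 825 were called higher and 636 lower. The counts were 366 higher with library totals alone, 479 and 436 higher with limma on log2(FPKM + 1) and log2(FPKM + 0.1), 541 higher and 321 lower without a filter, 350 lower with the length correction, and 1792 higher and 1540 lower with DESeq2. With 1 library left out they ran from 68 to 490 higher and from 64 to 422 lower. In the other glucose lists, with 6 higher and 2 lower, DESeq2 called 10 higher and 5 lower, and with 1 library left out 3 to 5 were higher and 0 to 2 lower. Replicate numbers are shared by the groups, but libraries of the same number did not deviate together over the genes tested (correlations of -0.0837, 0.0451 and -0.0946). That gave no sign of a pairing, but such a check cannot exclude one that acts on some of the genes. With the replicate block, 122 genes were called higher and 120 lower, 0 members in either direction, and 4 higher and 0 lower in the other lists.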
